A study of Mus musculus with 5 samples.

Results

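Neutrophil-like cells of MMTV-PyMT mammary tumors were described here, in single-cell transcriptomes of tumors from mice given an isotype antibody or the anti-VEGF-A antibody B20-4.1.1. The members were chosen by measured UMI counts: a cell was taken as neutrophil-like when it held 1000 to 27500 gene UMIs (unique molecular identifiers, 1 for each captured transcript) and at most 20% mitochondrial UMIs, at least 10 UMIs of S100a8 plus S100a9, at least 1 UMI of Csf3r, Cxcr2, Retnlg or Mmp9, at most 2 UMIs of Krt8 plus Krt18, no Cd3d, Cd3e or Cd3g UMI and at most 1 UMI of C1qa, C1qb and C1qc. Of 30340 deposited cells, 25751 met the UMI and mitochondrial limits (the kept cells), and 349 of these met the whole rule, 1.36% (95% exact binomial interval 1.218 to 1.504).

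In these mice, of strain FVB/N-Tg (MMTV-PyVT)634Mul/J, mammary epithelial cells express the polyoma middle T oncogene under the mouse mammary tumor virus promoter, and tumors arise with the host's own immune system present. Both antibodies, isotype IgG2a clone C1.18.4 and B20-4.1.1, were injected intraperitoneally at 5 mg/kg, 2 times per week for 6 weeks, from an age of 7 weeks. Tumors were dissociated, sorted for DAPI- (viable) cells, tagged with multiplexing oligonucleotides and sequenced in 5 pools of 3 tumors, each tumor from another mouse. The isotype group had 2 pools with 6 tumors and the B20-4.1.1 group 3 pools with 9 tumors. Every pool held a single treatment, so differences between pools and between treatments cannot be told apart, and each comparison of the treatments below carries that limit.

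Neutrophils are short-lived granulocytes that leave the bone marrow with their granules already filled. Granulocyte colony-stimulating factor, read by the receptor Csf3r, drives their production, and chemokines read by Cxcr2 draw them into inflamed tissue and tumors. They hold little RNA, so the UMI minimum was set below the 2500 UMIs that the study's filter requires. In tumors they are known as a source of interleukin 1, matrix proteases and factors that act on vessels and on lymphocytes.

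The 5 pools held 24288044 to 55544210 gene UMIs, with medians of 2321 to 7129 UMIs per deposited cell, lowest in isotype pool 1. Isotype pool 1 also held most of the neutrophil-like cells, 241 of 349 (69.1%), against 20 in isotype pool 2 and 63, 6 and 19 in B20-4.1.1 pools 1, 2 and 3. No barcode occurred in 2 tumors of a pool, and pairs of pools shared 0 to 24 barcodes. Of the neutrophil-like cells, 4 had a barcode that also occurred in another pool, none of them as a neutrophil-like cell there. The highest multiplexing oligonucleotide set was the tumor's own in 346 of 349 cells.

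The sequences before the start of S100a8, S100a9 and Retnlg are given because S100a8 and S100a9 define the cells and Retnlg, also a gene of the rule, varied with them from cell to cell. They are the 250 bases upstream of the gene start in RefSeq (build GRCm38.p6, the assembly of mm10), on the gene's strand, 5′ to 3′. S100a8 lies at chr3:90668821-90669070 on the plus strand, S100a9 at chr3:90695722-90695971 on the minus strand and Retnlg at chr16:48872358-48872607 on the plus strand. Capitals mark matches to a C/EBP motif (TTGCNNAA, or TTNNGCAA on the other strand) or a PU.1 motif (GAGGAAGT, or ACTTCCTC on the other strand), 2 families of factors that act in myeloid cells.
S100a8: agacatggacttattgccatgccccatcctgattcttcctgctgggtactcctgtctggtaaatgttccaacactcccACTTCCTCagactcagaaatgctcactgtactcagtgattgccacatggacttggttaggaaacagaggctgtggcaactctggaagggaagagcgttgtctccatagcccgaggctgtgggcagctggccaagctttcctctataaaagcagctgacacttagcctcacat
S100a9: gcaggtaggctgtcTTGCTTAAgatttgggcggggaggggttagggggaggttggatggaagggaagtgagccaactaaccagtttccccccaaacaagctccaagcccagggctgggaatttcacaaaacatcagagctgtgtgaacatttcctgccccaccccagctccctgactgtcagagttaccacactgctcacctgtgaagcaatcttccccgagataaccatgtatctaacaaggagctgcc
Retnlg: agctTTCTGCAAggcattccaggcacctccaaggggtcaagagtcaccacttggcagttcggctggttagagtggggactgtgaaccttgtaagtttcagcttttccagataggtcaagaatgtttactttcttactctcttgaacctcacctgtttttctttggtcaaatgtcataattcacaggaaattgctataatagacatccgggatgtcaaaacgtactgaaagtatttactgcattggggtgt

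The S100a9 and Retnlg windows each held 1 C/EBP match, starting 236 and 246 bases before the gene start, and the S100a8 window held 1 PU.1 match, 172 bases before it. C/EBP letters occurred in 9.56% and PU.1 letters in 2.44% of all 32851 windows of this length in the table. Of the 6 genes of the rule and the 20 leading genes named below, 22 had a window, and 5 of these (Clec4e, Ngp, Retnlg, S100a9 and Saa3) held C/EBP letters.

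The levels of the 6 genes that chose the cells are given as description. S100a9 and S100a8, the subunits of the calcium-binding protein calprotectin, stood at 783.7 and 719.9 UMIs per 10000 UMIs summed over the 349 cells, above every other gene. In a single cell they took 0.396% to 50.1% of the UMIs, with a median of 7.84%. Of the other genes of the rule, Retnlg, a secreted resistin-like protein, stood at 77.4, Cxcr2 at 9.43, Csf3r at 6.08 and the gelatinase Mmp9 at 3.59 per 10000. After each cell was thinned to 1000 UMIs, Cxcr2 was found in 53.3%, Retnlg in 50.7%, Csf3r in 39.3% and Mmp9 in 26.4% of the cells. In T-like cells thinned to the same depth, each of these 4 genes was found in 0% of 1000 cells. The median depth before thinning was 1849 UMIs in neutrophil-like and 3132 in T-like cells.

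Near the S100 limit of the rule there were 16 neutrophil-like cells with 10 to 14 S100a8 plus S100a9 UMIs, and 26 cells with 5 to 9 UMIs that met every other criterion. Inside and outside the limit, Il1b stood at 99.6 and 88.0 per 10000, against 115 in all neutrophil-like cells. Retnlg stood at 1.77 and 3.40, against 77.4, and the class II gene H2-Ab1 at 4.59 and 3.18, against 0.643. A further 104 cells with at least 500 but under 1000 UMIs met the other criteria, 89 of them in isotype pool 1. In 23 cells, 22 of them in isotype pool 1, S100a8 plus S100a9 made up under 1% of the UMIs.

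For comparison, 4 other sets of kept cells were gated, all with under 10 S100a8 plus S100a9 UMIs: 278 monocyte-like cells (Lyz2 with Csf1r, Ccr2, Ly6c2 or Fn1, C1q at most 1), 1535 macrophage-like cells (C1q at least 10), 4136 T-like cells and 9135 epithelial-like cells. These sets were cut by their expression, so the values that follow carry no test.

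**Figure D1:**
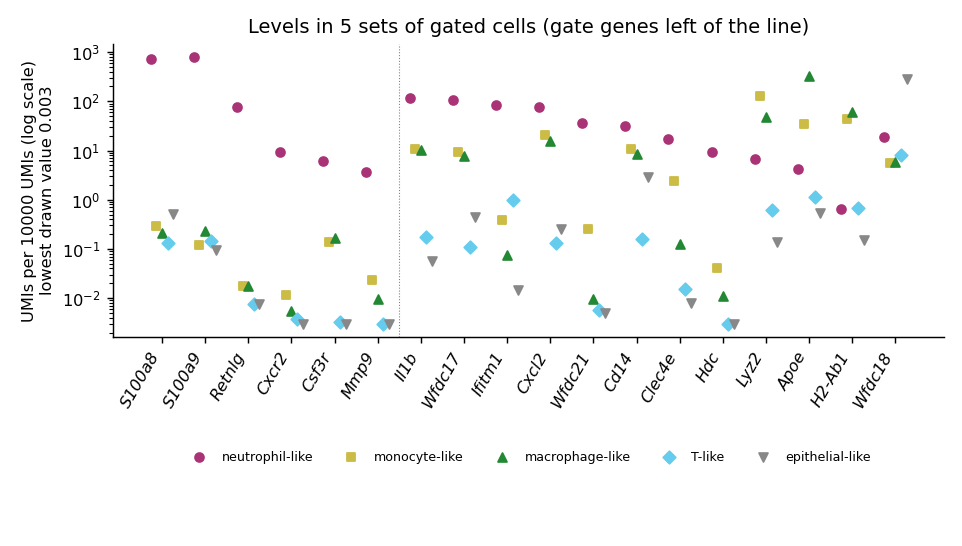
UMIs per 10000 UMIs (log scale) of 18 genes, summed over each of 5 gated sets of cells and shown as 1 point per gene and set, with values under 0.003 drawn at 0.003. Left of the dotted line are the 6 genes of the rule, and right of it genes outside it. Il1b, Wfdc17, Ifitm1, Cxcl2 and Wfdc21 lie highest in neutrophil-like cells, Lyz2 in monocyte-like, Apoe in macrophage-like and Wfdc18 in epithelial-like cells.

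Genes known from neutrophils led the profile outside the rule. The 20 genes with the highest ratio to all other kept cells, among those with at least 200 UMIs, included Wfdc21 (36.4 per 10000, 387 times the level in other cells), Hdc, the enzyme that makes histamine (9.54 per 10000, 299 times), the interleukin 36 gene Il1f9, Ifitm1, the lectins Clec4e and Clec4d, the receptor Trem1, the decoy receptor Il1r2 and the acute-phase gene Saa3. Stfa2 and Stfa2l1, inhibitors of cysteine proteases, stood at 3.56 and 11.6 per 10000, with Gm5483 at 12.0 and BC100530 at 12.2. These 4 belong to a cluster of near-identical stefin A genes, so the split of reads among them is uncertain. Ifitm6, Gm5150, Mcemp1, Il1b, Ngp, Wfdc17 and Slfn4 completed the 20, with ratios of 83.3 to 151. Against monocyte-like cells alone, the ratio was 3.36 to 8.79 for Mcemp1, Ifitm6, Clec4d, Gm5150, Clec4e, Slfn4 and Trem1. It was 10.6 for Il1b and 11.4 for Wfdc17. For Saa3, Il1r2, Wfdc21, Ifitm1 and Hdc it was 31.7 to 235, and the rest of the 20 had 0 UMIs in monocyte-like cells. Of 15 neutrophil markers outside the rule, 9 had a UMI in at least 25% of the cells and none was at 0.

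Markers of other cells were low or at 0. The 8 macrophage markers together stood at 6.11 per 10000, against 482 in macrophage-like cells. They include C1qa, C1qb and C1qc, which the rule limits and the macrophage-like gate requires, so this contrast was partly set in advance. Adgre1 and Mrc1 each had 1 UMI in 349 cells, and all 6 markers of mast cells or basophils were at 0. Of the eosinophil markers, Epx, Prg2, Ear2 and Il5ra were at 0 and only Siglecf was found, in 32 cells. Class II gene H2-Ab1 stood at 0.643 per 10000, against 61.7 in macrophage-like cells. RNA of epithelial cells was present: the 6 epithelial markers together stood at 24.9 per 10000, against 358 in epithelial-like cells and 10.3 in T-like cells. Most of it was Wfdc18 (18.4 per 10000). The 6 include Krt8 and Krt18, which the rule limits and the epithelial-like gate requires. Spp1, the osteopontin gene, stood at 13.03 per 10000 in neutrophil-like, 87.2 in epithelial-like and 5.84 in T-like cells. The milk protein gene Csn3 stood at 3.27 to 25.4 in the neutrophil-like cells of the 5 pools, 183 in epithelial-like and 5.51 in T-like cells. The part of free epithelial RNA in these levels was not tested.

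Granule genes are made in sequence while neutrophils mature in the marrow. Of the 7 primary granule genes in the files, made first, Mpo, Elane, Ctsg and Bpi had 0 UMIs of 730468, and Ctsc had 40, Prtn3 7 and Ms4a3 2, together 0.671 per 10000. Secondary granule genes were found in a minority of cells, Ltf in 55 cells (15.8%), Ngp in 23 (6.59%) and Camp in 12 (3.44%), and the neutrophil surface antigen gene Ly6g in 41 (11.7%). After thinning, Ltf was found in 10.9% of neutrophil-like and 4% of T-like cells. Other genes of the secondary and tertiary granule list were found in more cells: haptoglobin, Hp, was found in 70.5% of the cells (16.2 per 10000), Anxa1 in 59.6%, Pglyrp1 in 53.6% and Slpi in 51.6%. Lyz2 stood at 6.69 per 10000, against 130 in monocyte-like cells.

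Inflammatory ligands were among the most abundant genes. Il1b, the interleukin 1 beta gene, stood at 115 per 10000, against 10.9 in monocyte-like and 10.4 in macrophage-like cells. The neutrophil chemokine Cxcl2 stood at 76.9, against 20.9 and 15.4. The CC chemokines Ccl4, Ccl3 and Ccl6 reached 8.06, 6.17 and 4.90 per 10000, and Csf1 reached 4.12. Il6 was at 0, and Il10 had 1 UMI and Il1a 7.

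Of the chemoattractant receptors, Ccrl2 stood at 13.2, Ccr1 at 7.94 and the complement receptor C5ar1 at 3.68 per 10000, and Cxcr1, the second receptor for Cxcr2 ligands, was found in 8.31% of the cells. Cd14, the co-receptor for lipopolysaccharide, stood at 31.1 against 10.7 in monocyte-like cells, Fcer1g, the common gamma chain of Fc receptors, at 29.4 and Clec4e at 17.1. The cytokine receptors Il1r2 and Csf2rb stood at 4.57 and 4.13.

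Junb (46.6 per 10000), Fos (38.4) and Cebpb (28.6), a factor of emergency granulopoiesis, led the myeloid factors, although Junb, Fos and Egr1 also respond to tissue dissociation. Mcl1, the survival factor on which neutrophils depend, stood at 30.7, against 7.69 in macrophage-like cells, and Pim1 at 12.5. Of the oxidase genes, Cyba stood at 8.38, Rac2 at 6.94 and Ncf4 at 5.65. Of the adhesion genes, Cd9 stood at 7.69, Cd44 at 5.91 and Selplg at 5.22. Alox5ap (13.9) and G0s2 (10.3) led the lipid genes, and Ifitm2 (29.5) and Ifitm3 (10.6) the interferon-stimulated list. Ier3 (20.4) and the glycolytic enzymes Aldoa (10.3) and Pkm (6.12) led the hypoxia and glycolysis list.

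Genes often tied to tumor neutrophils were unequal. Wfdc17 (106 per 10000, in 85.7% of the cells), Ifitm1 (83.8) and Ptgs2, the inducible cyclooxygenase (7.37, in 32.7%), were prominent. Arg1 had 3 UMIs in 3 cells, Nos2 was found in 10 cells and Cd274, the PD-L1 gene, in 16 cells (4.58%). Of the angiogenic list, Cxcl2 and Mif (8.23) were highest, Prok2, a myeloid angiogenic factor, stood at 2.25 and Vegfa, the target of B20-4.1.1, at 0.726 per 10000, in 10.6% of the cells. Vegfa stood at 0.401 in epithelial-like cells.

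Levels of several genes ran with the S100a8 and S100a9 content of the cells, which the rule used, so what follows is a description. Spearman's rho over the 349 cells thinned to 1000 UMIs was 0.87 between S100a8 and S100a9 and 0.71 between Retnlg, a gene of the rule, and Wfdc21, which is outside it, against -0.05 between S100a8 and Il1b and -0.24 between Retnlg and Il1b. The cells share pools and libraries. In each of the 7 tumors with at least 10 neutrophil-like cells, cells were divided at the tumor's own median S100a8 plus S100a9 share, and levels were taken per 10000 UMIs other than these 2 genes.

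Retnlg was higher in the cells above the median in 7 of 7 tumors, with a median over tumors of 146 against 6.48 below it. Wfdc21 (73.6 against 3.85), Wfdc17 (204 against 37.1) and Hp (30.2 against 10.8) were also higher in 7 of 7 tumors. Prok2 was higher in 6 of 7 tumors (4.41 against 0.160), and Mmp8, the neutrophil collagenase, in 5 of 7 with none lower. Ptgs2 ran the other way in 7 of 7 tumors, 2.48 above the median and 11.6 below it, and Ccrl2 in 6 of 7 (10.2 against 18.4). Il1b was higher above the median in 4 of 7 tumors and Cxcl2 in 5 of 7, with no common direction. The median depth was higher above the median S100 share in the 4 isotype tumors (1974.5 against 1738, 2178 against 1724, 2228 against 1720 and 2845 against 1417.5 UMIs) and lower in the 3 B20-4.1.1 tumors (2052 against 2110, 1467 against 1698 and 1281.5 against 1492 UMIs).

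**Figure D2:**
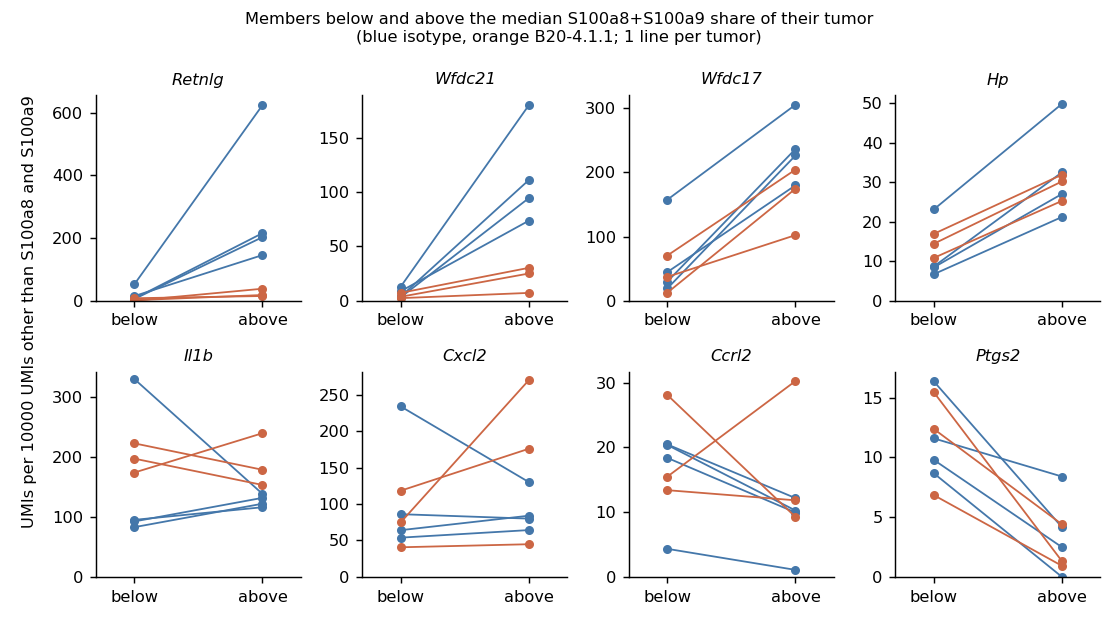
Level of 8 genes (UMIs per 10000 UMIs other than S100a8 and S100a9, linear axes from 0) in neutrophil-like cells below and above the median S100a8 plus S100a9 share of their tumor, with 1 line per tumor for 4 isotype and 3 B20-4.1.1 tumors. Retnlg, Wfdc21, Wfdc17 and Hp rise in every tumor, Ptgs2 falls in every tumor, and Il1b and Cxcl2 show both directions.

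Cells with a Ngp UMI and cells with a Siglecf UMI are also given as a description. The 23 cells with a Ngp UMI, 19 of them in isotype pool 1, had Retnlg at 253 per 10000 against 56.0 in the other 326 cells, Wfdc21 at 103 against 28.4, Camp at 26.0 against 0.0461 and Mmp8 at 12.1 against 1.23. Il1b stood at 31.1 against 125, Cxcl2 at 31.8 against 82.4 and Ccrl2 at 0.756 against 14.7. Their median depth was 2701 UMIs against 1816. The 32 cells with a Siglecf UMI, 19 of them in isotype pool 1, had Retnlg at 7.31 against 85.3 in the other 317 cells and Wfdc21 at 9.89 against 39.4, with Ccrl2 at 23.7 against 12.0, Csf1 at 7.58 against 3.73 and Ccl4 at 15.8 against 7.19. Ngp, found in 6.59% of all neutrophil-like cells, had 0 UMIs in the Siglecf cells, and Il1b was close in both sets, at 120 and 114. The median depth of the Siglecf cells was 2221.5 UMIs against 1811. In them S100a8 stood at 339 against 763 per 10000 and S100a9 at 411 against 826.

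The first comparison of the treatments was that of abundance. In isotype pool 1 the neutrophil-like cells made up 2.92%, 2.98% and 2.50% of the kept cells in tumors A, B and C. In isotype pool 2 they made up 0.142%, 0.753% and 0.228%. In B20-4.1.1 pool 1 the shares were 1.90%, 2.23% and 0.493%, in pool 2 they were 0.266%, 0.229% and 0.160%, and in pool 3 they were 0.233%, 0.327% and 0.908%. High tumors occurred under both treatments and the groups overlapped, with the 3 highest in isotype pool 1 and the lowest in isotype pool 2.

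**Figure D3:**
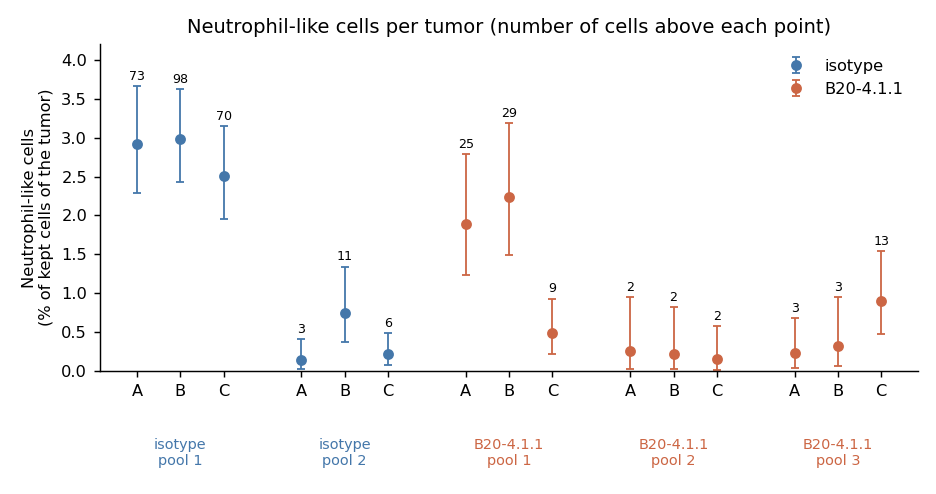
Share of neutrophil-like cells among the kept cells of each of the 15 tumors (points, percent), with 95% exact binomial intervals, which cover counting error only, and the number of neutrophil-like cells above each. The 3 tumors of isotype pool 1 lie at 2.50% to 2.98% and tumors A and B of B20-4.1.1 pool 1 at 1.90% and 2.23%, and the other 10 tumors lie below 1%.

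Isotype tumors had a mean share of 1.59% ± 1.36 (SD, n = 6), against 0.749% ± 0.782 (SD, n = 9) under B20-4.1.1, a difference of -0.838 percentage points (p = 0.129, exact two-sided permutation test over 5005 assignments of tumors). With the pool as the unit, p was 0.6 by exact permutation of 2 against 3 pools, where 0.1 is the smallest possible value. Isotype pool 1 decided the direction: without it the isotype mean was 0.374% and the difference turned to 0.375 percentage points (exact permutation p = 0.491). Without isotype pool 2 the difference was -2.05 percentage points (exact permutation p = 0.00455). The isotype group was then 3 tumors of 1 pool, which the test counts as independent. They are the 3 highest tumors, so this p is the smallest possible for 3 against 9 tumors. With the lower UMI limit of 2500, which leaves 82 cells, the difference was -0.537 percentage points (exact permutation p = 0.0176). That limit removed 180 of 241 cells in isotype pool 1 and 13 of 20 in isotype pool 2. In B20-4.1.1 pools 1, 2 and 3 it removed 53 of 63, 4 of 6 and 17 of 19. Most of the cells left were thus of isotype pool 1, and the difference without that pool was not taken at this limit. Tumor cells and other immune cells enter the denominator, so fewer neutrophils and more of other cells cannot be told apart.

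Depth per neutrophil-like cell did not separate the treatments, within the UMI limits that the rule sets. The median UMIs per cell were 1834, 1969, 1904 and 1459 in the isotype tumors with at least 10 cells, and 2110, 1600 and 1342 in the B20-4.1.1 tumors. The groups overlapped, with means of 1791.5 and 1684 (exact permutation p = 0.657 over 35 assignments). The median mitochondrial share was 1.05% in isotype pool 1 and 0.256% to 0.587% in the other pools.

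The second comparison asked which genes differed within the neutrophil-like cells. Counts were summed per tumor over the 7 tumors with at least 10 cells, tumors A, B and C of isotype pool 1, B of isotype pool 2, A and B of B20-4.1.1 pool 1 and C of B20-4.1.1 pool 3, with 19854 to 206541 UMIs per tumor and 11 to 98 cells. No tumor of B20-4.1.1 pool 2 entered. Of 768 genes tested with edgeR's quasi-likelihood test, 8 had an adjusted p under 0.05 (1.04%), 7 lower in B20-4.1.1 tumors (0.911%) and 1 higher (0.13%), and 113 (14.7%) had an unadjusted p under 0.05. Retnlg is among the 8 but belongs to the rule, so its values are given as a description, and 7 called genes lie outside the rule. With the pool as a random block (limma voom), 2 of these 7 passed, Lcn2 and Wfdc21. With counts summed per pool, none of 601 genes passed in edgeR, and 13 had an unadjusted p under 0.05.

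Wfdc21, Ifitm6, Lcn2 and Prok2 were lower in the B20-4.1.1 tumors, and Ninj1, a membrane protein that ruptures the plasma membrane in lytic cell death, was higher. Values below are UMIs per 10000 UMIs of the neutrophil-like cells, and fold changes are log2 fold changes with standard errors and Benjamini-Hochberg adjusted p from edgeR.

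Wfdc21, of the whey acidic protein family, stood at 41.0, 36.8, 49.3 and 75.4 in the isotype tumors and at 11.8, 3.98 and 15.1 in the B20-4.1.1 tumors. Its log2 fold change was -2.60 ± 0.48 (adjusted p = 0.0292). The 5 pools stood at 41.9 and 57.0 against 9.60, 32.7 and 22.5. Called genes were named in part for pools without overlap, so that separation is given as a description here and below. In the cells of tumors outside the fit, Wfdc21 stood at 31.6 in isotype pool 2 and at 18.1, 32.7 and 37.5 in B20-4.1.1 pools 1, 2 and 3, so these cells overlapped. Ifitm6, a myeloid member of the interferon-induced transmembrane family, stood at 15.9, 5.96, 13.5 and 9.05 in isotype and at 0.735, 0 and 2.52 in B20-4.1.1 tumors (log2 fold change -4.05 ± 0.68, adjusted p = 0.0146), without overlap of tumors or pools. Outside the fit it stood at 10.1 in isotype pool 2 and at 0.566, 4.57 and 2.03 in B20-4.1.1 pools 1, 2 and 3.

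Lcn2, the siderophore-binding lipocalin of secondary granules, stood at 32.1, 18.98, 26.9 and 38.8 in the isotype tumors and at 4.23, 7.34 and 4.53 in the B20-4.1.1 tumors, with a log2 fold change of -2.66 ± 0.39 (adjusted p = 0.00848). The pools stood at 25.4 and 29.3 in isotype and at 6.85, 17.0 and 14.8 in B20-4.1.1, and with counts summed per pool the log2 fold change was -1.29. In the cells of tumors outside the fit, Lcn2 stood at 16.1 in isotype pool 2 and at 13.6, 17.0 and 35.5 in B20-4.1.1 pools 1, 2 and 3, with 35 UMIs in the last, so these cells overlapped. Lcn2 is also expressed by the tumor epithelium, at 84.9 per 10000 in epithelial-like cells. In T-like cells, which should lack it, Lcn2 stood at 5.22 and 2.15 in the isotype pools and at 2.72, 1.14 and 2.17 in the B20-4.1.1 pools. Prok2 stood at 3.69, 2.18, 2.62 and 3.02 in isotype and at 0.551, 0 and 1.01 in B20-4.1.1 tumors (log2 fold change -2.92 ± 0.61, adjusted p = 0.0370). Prok2 had 3, 4 and 3 UMIs in B20-4.1.1 pools 1, 2 and 3, and B20-4.1.1 pool 2 (2.61) overlapped with isotype. Outside the fit it stood at 0.596 in isotype pool 2, with 1 UMI. In B20-4.1.1 pools 1, 2 and 3 it stood there at 0, 2.61 and 1.01, so these cells overlapped.

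Ninj1 stood at 1.23, 1.45, 0.958 and 0.431 in the isotype tumors and at 2.94, 5.24 and 5.04 in the B20-4.1.1 tumors (log2 fold change 1.67 ± 0.33, adjusted p = 0.0370). All 3 B20-4.1.1 tumors lay above the isotype tumors. Separate pools were a condition for naming the gene. They stood apart by 1.31 in B20-4.1.1 pool 2, with 2 UMIs, against 1.24 in isotype pool 1. Outside the fit, Ninj1 stood at 1.19 in isotype pool 2 and at 2.83, 1.31 and 1.01 in B20-4.1.1 pools 1, 2 and 3. These cells overlapped and held 2, 5, 2 and 1 Ninj1 UMIs. The last 2 called genes fell outside the rule for naming genes and are named after their values were seen. R3hdm4 was lower in the B20-4.1.1 tumors of the fit (2.02 against 0.491 on average), but B20-4.1.1 pool 2, outside the fit, had the highest pool level. The pools stood at 2.09 and 1.25 in isotype and at 0.501, 3.92 and 0.336 in B20-4.1.1, the latter with 6, 6 and 1 UMIs. Igfbp5, a growth factor binding protein, was also lower. It stood at 18.2, 26.1 and 13.5 in isotype pool 1, at 1.72 in tumor B of isotype pool 2 and at 2.39, 2.94 and 0.504 in the B20-4.1.1 tumors, so isotype pool 2 lay among the B20-4.1.1 tumors. Without isotype pool 1 its log2 fold change went from -3.01 to -0.24 (adjusted p = 0.929 from edgeR). Igfbp5 stood at 53.4 per 10000 in epithelial-like cells, and in T-like cells it stood at 11.8 in isotype pool 1 and at 0.704 to 1.96 in the other 4 pools. The part of free epithelial RNA in the Igfbp5 and Lcn2 results was not tested.

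**Figure D4:**
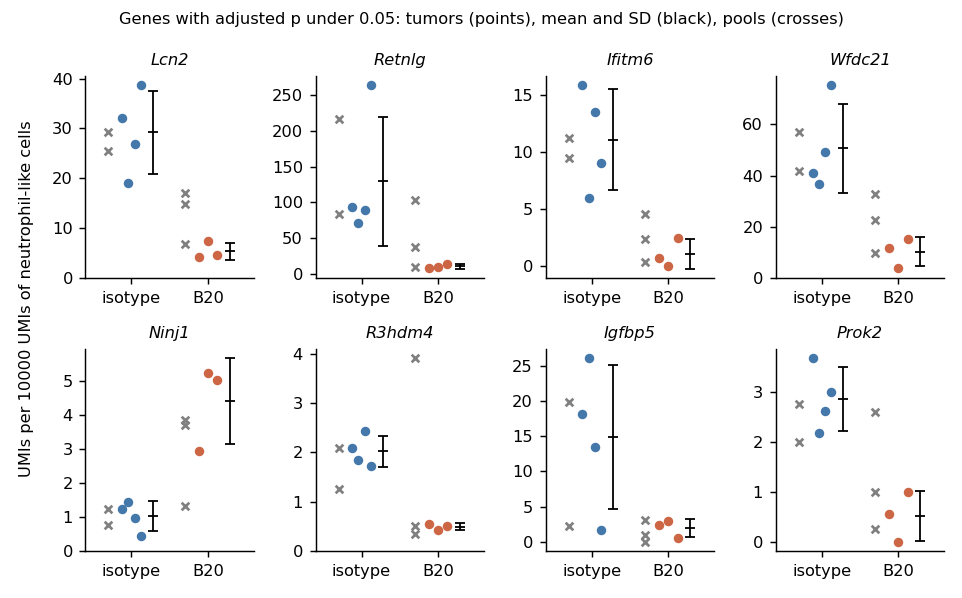
Levels (UMIs per 10000 UMIs of neutrophil-like cells, linear axes) of the 8 genes with an adjusted p under 0.05, of which Retnlg belongs to the rule, in 4 isotype (blue) and 3 B20-4.1.1 tumors (orange), with the mean and SD in black and all 5 pools as grey crosses. The tumors of the treatments do not overlap for 7 genes and overlap for Igfbp5, and the pools overlap for Retnlg, R3hdm4, Igfbp5 and Prok2.

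Genes of the rule are given by their levels alone. Retnlg stood at 93.4, 71.7 and 89.3 in tumors A, B and C of isotype pool 1, at 263.7 in tumor B of isotype pool 2 and at 7.90, 9.85 and 14.6 in the B20-4.1.1 tumors. These tumors did not overlap. In the cells of tumors outside the fit, Retnlg stood at 151 in isotype pool 2 and at 17.6, 103 and 86.1 in B20-4.1.1 pools 1, 2 and 3, so pools 2 and 3 reached the isotype levels there. S100a8 ranged from 644.7 to 1416 in isotype and from 310.5 to 568.1 in B20-4.1.1 tumors, without overlap. S100a9 (594.6 to 1625 against 453.7 to 705.7), Csf3r (4.85 to 6.03 against 5.87 to 9.07), Cxcr2 (8.18 to 12.5 against 5.66 to 15.6) and Mmp9 (2.76 to 5.17 against 1.29 to 5.54) overlapped.

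Further granule genes and the main cytokines did not pass the test. Ngp stood at 17.97, 2.18, 4.41 and 4.31 in isotype tumors and had 0 UMIs of 121984 in the B20-4.1.1 tumors. A floor of 3 UMIs over that group lay 29.3-fold below the isotype mean. It is no bound on the fold, since the 418 Ngp UMIs of all neutrophil-like cells lay in 23 cells. The adjusted p was 0.0506 from edgeR and 7.6e-06 from DESeq2. Tumor A of isotype pool 1 carried that mean, and without isotype pool 1 the floor lay 17.5-fold below the isotype level. Ngp had 1 UMI each in B20-4.1.1 pools 2 and 3, in cells of tumors outside the fit. Mmp8 had a log2 fold change of -3.85 ± 1.07 (adjusted p = 0.107). Groups of tumors without overlap were frequent among the tested genes, 18.8% of 768, with 2.86% lower and 15.9% higher in B20-4.1.1.

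Il1b stood at 85.5, 93.0, 93.7 and 154 in isotype and at 185, 186 and 156 in B20-4.1.1 tumors. On this scale the tumors did not overlap, by a margin of 153.8 against 155.6. The TMM factor was 0.688 in that isotype tumor, B of isotype pool 2, and 1.07 to 1.17 in the B20-4.1.1 tumors. On the scale of the fit, which uses these factors, the separation is lost. The log2 fold change was 0.46 ± 0.33 (adjusted p = 0.574). Without isotype pool 2 it was 0.79 (adjusted p = 0.0435 by edgeR). Cxcl2 stood at 49.1, 65.2, 68.7 and 122 in isotype and at 38.6, 144 and 125 in B20-4.1.1 tumors, with overlap (log2 fold change 0.16 ± 0.47, adjusted p = 0.891). Since S100a8 and S100a9 took up to 2717 of 10000 UMIs of a pool's neutrophil-like cells, a level per 10000 of any other gene moves with them, while the fold changes use TMM factors.

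By gene list, 121 of 248 different genes on 16 lists were tested, and 2 of them were called (1.65%, beside 1.04% of all tested genes). Of the secondary and tertiary granule list, 11 of 20 genes were tested. Of these, 1 was called by edgeR, Lcn2, and 3 by DESeq2, which called 20 of all 768 genes. In edgeR, 6 had an unadjusted p under 0.05. Of the 11 fold changes 10 lay below 0, with a median of -0.76, beside -0.000854 over all 768 genes. The whole granule list stood at 101 per 10000 in neutrophil-like, 157 in monocyte-like and 117 in epithelial-like cells. The part of free epithelial RNA in its fold changes was not tested. Of the angiogenic list, 4 of 11 genes were tested and Prok2 was called (median -0.07). No primary granule gene had enough counts. The other 13 lists, among them chemokines and cytokines (9 tested, median 0.29), hypoxia and glycolysis (16 tested, median 0.17), interferon-stimulated genes (7 tested, median -0.27) and suppressive genes (12 tested, median -0.06), had no call by edgeR or DESeq2 among 111 genes, of which 15 had an unadjusted p under 0.05 (13.5%, beside 14.7% of all tested genes). Of the 12 tested neutrophil markers outside the rule, Lcn2 and Wfdc21 were called and 10 fold changes lay below 0. Their median was -0.42, beside -0.000854 over all 768 genes.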

How the data were processed

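Cells of 15 MMTV-PyMT tumors were profiled with droplet-based 3′ single-cell RNA-seq. The authors made 1 matrix per tumor with Cell Ranger 6.1.2 (file headers) on mm10 (submitters' processing notes, which also name bcl2fastq and Seurat 4.3.0), and the deposited values are raw UMI counts without normalization for 31053 genes and 12 multiplexing features. Everything else was computed from these counts in Python 3.11.15 (numpy 2.4.6, scipy 1.17.1, pandas 2.3.3) and, for the models across genes, with DESeq2 1.42.0, limma 3.58.1 and edgeR 4.0.16 under R 4.3.3.

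The members and gene lists were chosen with earlier results of these data known. No clustering and no doublet caller were used: the rule bars cells with keratin, Cd3 or C1q RNA beyond its limits. Levels are UMIs per 10000 gene UMIs summed over cells, and intervals are 95% exact binomial intervals that cover counting error only. A gene at 0 was given a floor of 3 UMIs. Shares of cells with a UMI were also taken after thinning each cell to 1000 UMIs (for each other gate, at most 1000 cells).

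Tumors were the replicates, grouped by the treatment in the labels. Shares and medians were compared by exact two-sided permutation tests. Counts were summed over the neutrophil-like cells of each tumor with at least 10 of them and fitted in edgeR after filterByExpr with TMM factors and no covariate, and the treatments were compared by its quasi-likelihood F test, with Benjamini-Hochberg adjustment at 0.05. The standard error is the log2 fold change divided by the square root of F. In a simulation with the same tumors and 1036 genes tested, 85% of genes changed 4-fold and 32% of genes changed 2-fold were called. Unchanged genes called were 3. The simulated counts had 1 common dispersion and no pool effect, and only genes with higher counts were changed. These shares therefore do not cover differences between pools, unequal spread of genes or genes with few counts.

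Named genes were the 6 genes of the rule, up to 5 genes per list with the highest level and any called member, the 20 genes with the highest ratio to other kept cells among those with at least 200 UMIs, and called genes whose pools did not overlap. Alternatives changed the UMI and mitochondrial limits, the S100, receptor and keratin thresholds, the denominator, the unit, the normalization, the filter, the tool and the tumors or pools included. Classes of tumors by hypoxia, which the labels do not give, were not analysed here. A gene of the lists is not reported here.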

Additional observations from a re-analysis of the deposited data

Results flagged for a closer look

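Of 20 groups of samples tested for a single sample far from the others (Dixon's criterion, which flags about 1 in 20 groups by chance), 3 met it, all among the 4 isotype tumors with at least 10 neutrophil-like cells. Retnlg stood at 263.7 per 10000 UMIs in tumor B of isotype pool 2, against 71.7 to 93.4 in the other 3. Il1b stood at 154 per 10000 in the same tumor, against 85.5 to 93.7. That tumor held 11 neutrophil-like cells, and the other 3 are all tumors of isotype pool 1. Ngp stood at 17.97 per 10000 in tumor A of isotype pool 1, against 2.18 to 4.41 in the other 3.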

How the results depend on the processing

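The pattern of 8 called genes rested on few tumors and cells. The called genes kept their direction under every alternative that tested them. Leaving out B20-4.1.1 pool 2 removed no tumor from the fit and is not counted here. Of the 91 other pairs of a called gene outside the rule and an alternative, 59 kept the call and 32 did not. Lcn2 was called under 12 of 14 alternatives, Wfdc21 under 11 of 14, Ifitm6 under 10 of 14, Prok2 under 7 of 12, Igfbp5 under 7 of 14, R3hdm4 under 6 of 10 and Ninj1 under 6 of 13. The number of called genes was 20 with DESeq2, 41 without the filter on low counts, 47 in tumors with at least 20 cells (3 of isotype pool 1 against 2 of B20-4.1.1 pool 1, so 1 pool against 1), 1 in tumors with at least 5 cells (Ifitm6), 3 in cells thinned to 1000 UMIs and 3 with voom and the pool as a random block (Retnlg, Lcn2 and Wfdc21 in both), and 0 of 601 with pools in place of tumors (edgeR, 13 at an unadjusted p under 0.05). With members without any Krt8 or Krt18 UMI, an alternative chosen after seeing the data, 31 genes were called, 6 of the 8 among them. When 1 pool was left out, the number ranged from 4 (without B20-4.1.1 pool 1) to 43 (without isotype pool 2, where isotype pool 1 alone remains). Without isotype pool 1 it was 35, 4 of them shared, with a single isotype tumor that is assumed to vary like the others. The lower UMI limit of 2500 left no B20-4.1.1 tumor with 10 cells, so it gave no fit or median.

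Among named genes outside the rule that did not pass the test, calls were gained by Ngp and by Mmp8 under 5 alternatives each and by Il1b under 2. Signs also turned, for genes of the rule as well. Cxcl2 turned to -0.45 in tumors with at least 5 cells and to -0.0060 with voom, Cxcr2 to 0.14 and Mmp9 to 0.037 in thinned cells. With 1 pool left out, Csf3r ranged from -0.26 to 0.39, Cxcr2 from -0.83 to 0.34, Cxcl2 from -0.82 to 0.59, Il1b from -0.37 to 0.79 and Mmp9 from -1.13 to 0.21. The share difference was -0.537 percentage points at the lower UMI limit of 2500 (exact permutation p = 0.0176). With 1 pool left out it ranged from -2.05 (without isotype pool 2, exact permutation p = 0.00455) to 0.375 (without isotype pool 1). At that UMI limit most cells left were of isotype pool 1, and without isotype pool 2 that pool alone made up the isotype group. The difference in median UMIs was 24.5 with the pool as unit, and ranged from -449.5 to 225 with 1 pool left out. The cause of these changes was not tested. No paired analysis was possible because the replicate numbers only name the pools, and no tumor of one treatment is matched to a tumor of the other.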
